A study of Homo sapiens with 6 samples.

Results

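The comparison described here is between cancer cells recovered from a bleomycin-injured mouse lung and cancer cells recovered from lungs shared with a second, aggressive cancer line. It rests on 3 of the study's 6 RNA libraries, which were chosen by their labels: 1 bleomycin library and 2 LM2 libraries. All 3 are labelled SUM159, a human triple-negative breast cancer line, with the genotype ITGB4 low, meaning little of the integrin chain that anchors epithelial cells to laminin. The level of ITGB4 in them goes against that label: it was at 306 CPM (counts per 1000000) with bleomycin and at 471 and 442 with LM2, beside 384 in the ITGB4-high cells and 25.9 and 24.6 in the ITGB4-low controls. Below, these libraries are called by their treatment. The bleomycin library is clone 1 from mice given bleomycin, a drug that damages and inflames the lung, through the trachea. The LM2 libraries are clones 1 and 3 from lungs that also received LM2 cells, a lung-seeking derivative of the MDA-MB-231 breast cancer line. LM2 cells are human as well, and the labels do not say whether they carry the tdTomato marker used for sorting. Lung suspensions of all 3 were grown overnight in dishes and sorted for tdTomato, per the design text, so they share that handling. The treatment protocol names clone 1 only, and clone 3 for the second LM2 library rests on its title. The other 3 libraries were grown in dishes without passing through a lung: ITGB4 low control clones 1 and 3, and 1 library of ITGB4 high cells. They entered the fit, and their levels are given below where they place a gene. Lungs with ITGB4-low cells but neither bleomycin nor LM2 were not analysed here. The sources used here give no mouse strain, age, bleomycin dose or time in the lung.

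Injury and tumour cells both bring inflammation to the lung, but by different routes. Bleomycin breaks DNA in lung cells, and the repair that follows draws in myeloid cells and ends in scarring. Neighbouring tumour cells act on each other through secreted growth factors, cytokines and matrix. Dormant cancer cells in the lung can resume growth when their surroundings become inflamed, and their place between epithelial and mesenchymal states is known to bear on that.

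Libraries held between 13607953 and 22222121 counts, and 15673 genes passed a filter on low counts. A gene could pass on 1 library alone, so the list tallies below include genes that passed through the bleomycin library only. Levels are given as CPM, counts per 1000000 of each library after TMM normalisation, in the order bleomycin, LM2 clone 1, LM2 clone 3, and they are not corrected for gene length. Ratios are log2 differences of CPM with a prior count of 2, so they understate differences of low genes. A gene is called above both or below both when the bleomycin library lies on the same side of each LM2 library, by any amount. Both ratios of a gene use the same bleomycin library, and p-values reflect only how far these libraries spread, which may be technical.

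The bleomycin library was no farther from either LM2 library than these were from each other. A 2-fold difference or more separated it from LM2 clone 1 in 2091 genes (13.3%) and from LM2 clone 3 in 1453 (9.27%), of which 784 (5.0%) were above it and 669 (4.27%) below. The LM2 libraries were that far apart in 2445 genes (15.6%), with clone 1 the higher in 983 (6.27%) and the lower in 1462 (9.33%). The bleomycin library lay above both LM2 libraries in 4736 genes (30.2% of those tested), below both in 4668 (29.8%) and between them in 6269 (40.0%). At 2-fold or more, 263 genes (1.68%) were above both and 201 (1.28%) were below both. Of the 263, 197 were protein coding and 66 reached 5 CPM, and of the 201, 147 were protein coding and 83 reached 5 CPM. At the edge of that rule stood NHERF2, with a smaller ratio of 1.00, and ANKRD1, with 0.98.

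edgeR's quasi-likelihood test of the bleomycin library against the LM2 libraries called 0 of 15673 genes at an adjusted p under 0.05. At an unadjusted p under 0.05 there were 723 genes (4.61%), of which 319 (2.04%) were higher and 404 (2.58%) lower with bleomycin. The smallest adjusted p was 0.59. DESeq2 called 56 genes, 14 higher and 42 lower, and edgeR without the filter on low counts called 236 of 33274 genes, of which 100 were higher and 135 lower against both LM2 libraries. limma-voom called 0, with 752 at an unadjusted p under 0.05. Fits without 1 of the LM2 libraries take their spread from the control pair alone, so their calls are not given. With 1 bleomycin library, no difference below has a replicate check on the bleomycin side.

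**Figure D1:**
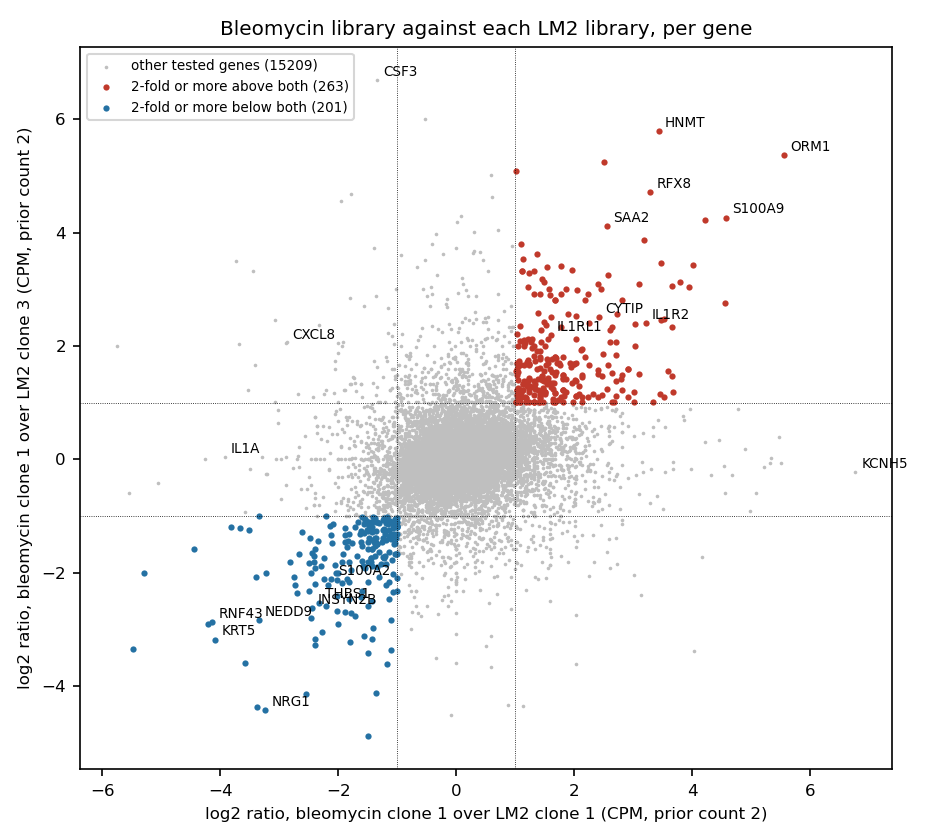
Each point is 1 of the 15673 genes tested, with the log2 ratio of the bleomycin library to LM2 clone 1 on the horizontal axis and to LM2 clone 3 on the vertical axis. The 263 genes 2-fold or more above both libraries are red, the 201 genes below both are blue, and dotted lines mark 2-fold. CXCL8 and IL1A lie to the left, where the bleomycin library was lower than LM2 clone 1 alone.

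The 12 genes that stood highest above both LM2 libraries were ORM1, S100A9, HNMT, RFX8, SAA2, AQP9, CYBA, CYTIP, IL1R2, AOC3, TNFAIP8L3 and SULT1B1. The list led with ORM1, which encodes the plasma acute-phase protein orosomucoid. ORM1 stood at 13.1 CPM with bleomycin and at 0.155 and 0.192 in the LM2 libraries, from 204, 2 and 3 counts. Those counts give ratios of 84.4 (95% exact counting interval 23.1 to 701) and 68.2 (23.01 to 333). The controls held 0 and 1 counts of it, and the ITGB4-high cells were at 0.803 CPM, so the bleomycin library alone was high. Intervals cover counting error only. The fitted log2 difference was 6.16 (SE 0.56, edgeR adjusted p = 0.59).

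S100A9, a calcium-binding protein best known from neutrophils, was at 15.8 CPM with bleomycin and at 0.542 and 0.703 with LM2. Its partner S100A8 was at 3.78 against 0.155 and 0.320. In controls S100A9 was at 1.66 and 1.52 CPM and S100A8 at 0.970 and 0.873, so both LM2 libraries were below control and the bleomycin library above it. CYBA, a subunit of the phagocyte NADPH oxidase, was at 10.2 CPM against 0.775 and 1.73, close to the 9.42 of ITGB4-high cells and far from the 0.0693 and 0.0919 of controls. AQP9, a water and glycerol channel, was at 7.18 CPM against 1.16 and 0.0639, and IL1R2, which binds interleukin-1 without signalling, at 16.1 against 1.63 and 2.94.

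CYTIP, a scaffold that binds cytohesins at the cell edge, stood apart by its even levels elsewhere. It was at 61.6 CPM with bleomycin and at 11.4 and 10.7 with LM2, and between 11.7 and 14.9 in the 3 dish-grown libraries. Its ratios were 5.41 (4.54 to 6.48) and 5.74 (4.86 to 6.80), with a fitted log2 difference of 2.48 (SE 0.20, edgeR adjusted p = 0.59). TNFAIP8L3, a phosphoinositide transfer protein, showed another order, at 29.8 CPM against 4.80 and 7.03, with controls at 17.7 and 18.6. There the LM2 libraries were low and the bleomycin library was nearer the controls.

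Enzymes completed the highest genes. HNMT, which inactivates histamine, was at 10.5 CPM against 0.852 and 0.0639, the last from 1 count. SULT1B1, a sulfotransferase of the gut and liver, was at 11.5 against 2.87 and 1.02, on chromosome 4. AOC3, an amine oxidase of vessel walls, was at 11.03 against 1.70 and 2.17, and its reads may be split with its neighbour AOC2, a close copy. The transcription factor RFX8 was at 11.7 against 1.08 and 0.320. In the 2 controls each of these was below 1 CPM.

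These 12 highest genes were picked by their ratios in the same libraries, so calls among them are no separate support. edgeR with its filter called 0 of them. DESeq2 called 5 (ORM1, S100A9, CYTIP, TNFAIP8L3 and the serum amyloid gene SAA2), beside 56 of all 15673 genes. edgeR without its filter called 11, beside 236 of 33274. Over the 263 genes, the median log2 difference from the own clone's control was 1.67 with bleomycin, -0.08 in LM2 clone 1 and -0.32 in LM2 clone 3. The 263 were selected for a high bleomycin level against both LM2 libraries, so the gap between these medians was set in part by selection. In 101 of the 263 both LM2 libraries were below their controls, and with bleomycin 74 of those were above control. In 69 both LM2 libraries were above their controls, and there the rule of 2-fold above both sets the bleomycin library higher still.

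**Figure D2:**
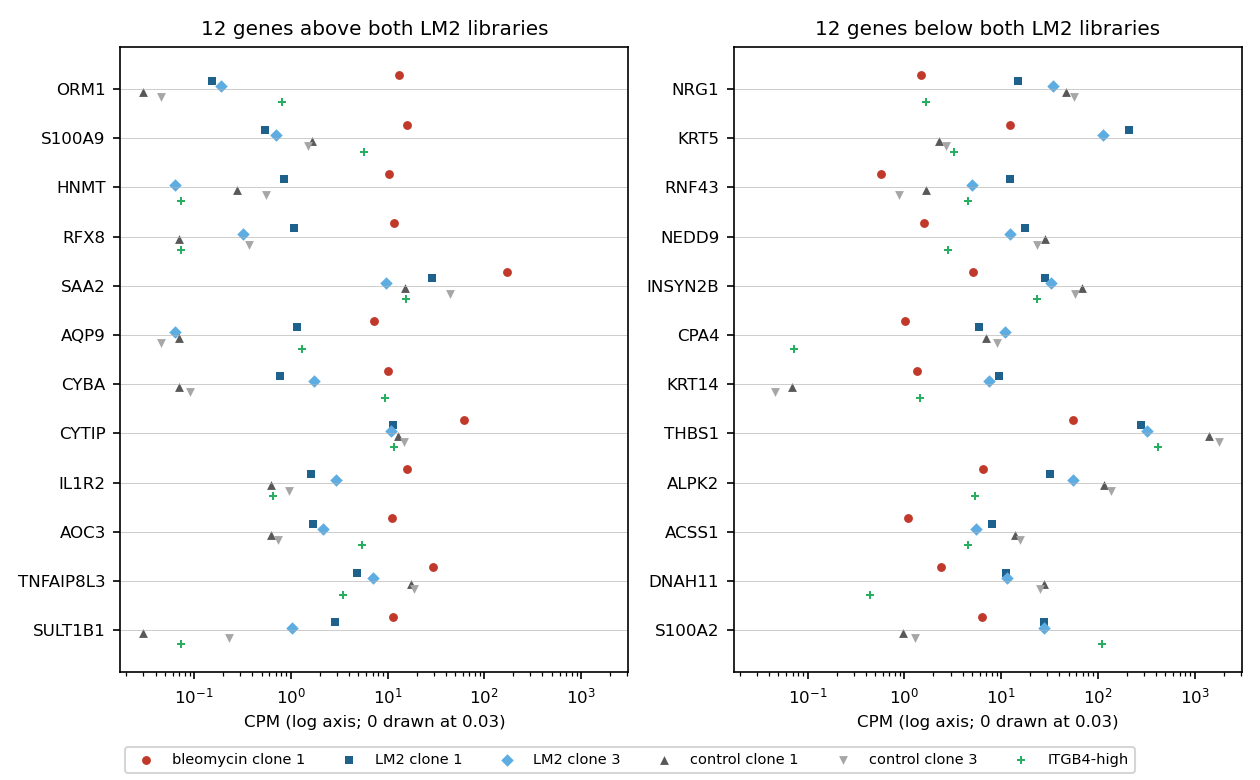
Levels in CPM (logarithmic axis) of the 12 genes highest above both LM2 libraries (left) and the 12 lowest below both (right), 1 symbol per library, 0 drawn at the left edge, and no error bars, since each is a single library. In the left panel the red bleomycin circles lie to the right of both blue LM2 symbols, and in the right panel to their left.

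Myeloid markers are given here because S100A9 and CYBA, above, are known from neutrophils and phagocytes. The 21 markers summed to 75.3 CPM with bleomycin and to 19.8 and 49.7 with LM2 clones 1 and 3. Control clone 1 was at 78.1, so the bleomycin sum was not above its control, and the dish-grown libraries ran from 62.5 to 164. Of that sum, LAPTM5 gave 59.5, 9.84 and 41.9 CPM, with 57.8 in control clone 1. The part of myeloid cells in the genes above was not tested. Of the 8 markers that passed the filter, 7 were above both LM2 libraries (87.5%, against 30.2% of all genes). CD68 was among them and passed through the bleomycin library only, with 25 counts there against 6 and 8. The other, CD33, was below both, at 0.705 CPM against 4.42 and 2.49. The defining markers TYROBP, C1QA, C1QB, C1QC, SPI1, AIF1, FCGR1A and FCGR3A had 0 counts in all 3 lung libraries. The host lungs are mouse and reads were aligned to the human hg38 build. The part of mouse reads in these values was not tested. In bulk RNA, more cells of a type and more RNA per cell cannot be told apart.

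Acute-phase and complement genes were higher as a list. These proteins are made mainly by the liver during inflammation and mark, coat or trap microbes and damaged cells. Of 22 tested, 13 were above both LM2 libraries (59.1%, against 30.2% of all genes) and 3 below both, with medians of 0.75 against LM2 clone 1 and 0.86 against LM2 clone 3 (0.02 and -0.01 over all genes). edgeR called 0 of them. Without LM2 clone 3, 15 of 22 were above the remaining LM2 library, and without LM2 clone 1, 17 were. Over all 15673 genes these counts were 8066 and 7662.

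SAA2, a serum amyloid protein, was at 170 CPM with bleomycin and at 28.8 and 9.65 with LM2. Its neighbour SAA1 was at 439 against 129 and 41.4, and SAA4 at 2.56 against 0.465 and 0.256. Reads of SAA1 and SAA2 may be split, since the sequences are near-identical. Both LM2 libraries did not move alike here: SAA1 was 66.0 and 158 CPM in control clones 1 and 3, below LM2 clone 1 and above LM2 clone 3.

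The classical complement proteases, PTX3 and C3 were chosen after their values were seen. C1R was at 48.8 CPM against 15.0 and 14.1, and its partner C1S at 58.0 against 23.7 and 14.7, both above controls of 2.36 to 9.33 CPM. HP, which encodes haptoglobin, was at 1.22 against 0.155 and 0.128, from 2 counts in each LM2 library. PTX3, a soluble pattern receptor, went the other way, at 103 CPM with bleomycin and 586 and 368 with LM2. C3, the central complement protein, lay between, at 987 against 1859 and 868.5.

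The ORM1 promoter is shown because that gene led the list and was high in 1 library alone. CEBP factors drive acute-phase genes in liver, and their motif was searched as TTNNGNAAT on both strands, with matches in capitals. The window runs 250 bases before to 50 after the RefSeq start (GRCh38.p14, chr9:114322848-114323147, plus strand), and the match lies at -109 from the start.
ORM1: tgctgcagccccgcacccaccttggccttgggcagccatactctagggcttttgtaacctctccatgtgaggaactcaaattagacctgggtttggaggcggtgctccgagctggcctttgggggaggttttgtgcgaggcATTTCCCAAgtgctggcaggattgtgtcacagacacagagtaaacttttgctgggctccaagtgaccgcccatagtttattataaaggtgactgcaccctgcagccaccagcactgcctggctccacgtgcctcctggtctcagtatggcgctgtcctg
Of 35116 promoters of this length 11% held the motif, as did 6 of the 15 tested acute-phase genes with a promoter in the table. A match is a description of letters only.

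The interleukin-1 receptor genes sit side by side on chromosome 2, and several of them were above both LM2 libraries. This stretch, from NPAS2 to TMEM182 (GRCh38 chr2:100820152-103019900, 2.2 Mb), was chosen after its values were seen. Of 18 tested genes in it, 12 were above both LM2 libraries, 2 below both and 6 were 2-fold or more above both, with medians of 0.61 and 0.65. Over all genes tested, 30.2% were above both, 29.8% below both and 1.68% were 2-fold or more above both. Chromosome 2 as a whole had medians of 0.07 and -0.01.

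IL1RL1, the receptor for interleukin-33, was at 1064 CPM with bleomycin against 351 and 234 with LM2, and at 104 and 82.7 in controls. IL18R1, the interleukin-18 receptor chain, was at 566 against 242 and 240. These 2 genes overlap on 1 strand, so some reads could belong to either. IL1R1, the signalling interleukin-1 receptor, was at 293 CPM against 119 and 171, with controls at 122 and 169. The clock factor NPAS2 was at 39.5 against 13.6 and 12.5. The kinase gene MAP4K4, between RFX8 and IL1R2, did not share the order, with ratios of -0.13 and 0.55. DESeq2 called IL1RL1, IL18R1 and NPAS2, and edgeR with its filter called none of the 18 genes.

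**Figure D3:**
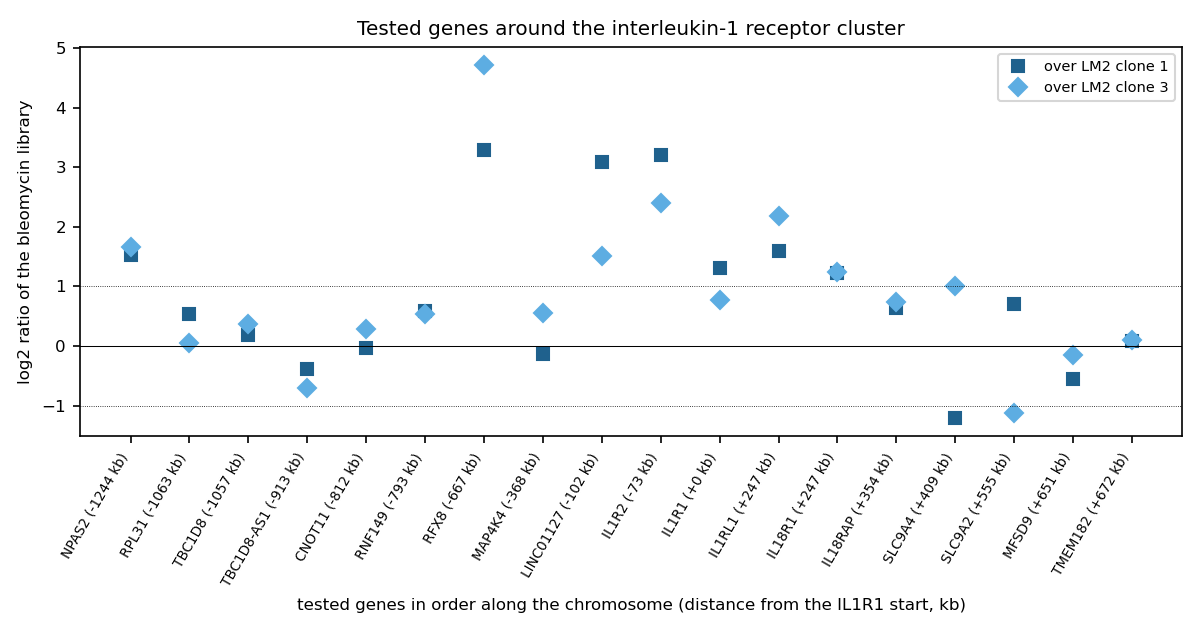
The 18 tested genes of the interval in chromosomal order, labelled with the distance of each gene's lower coordinate from that of IL1R1 in kb, against the log2 ratio of the bleomycin library to LM2 clone 1 (squares) and LM2 clone 3 (diamonds). RFX8 and IL1R2 stand highest, and MAP4K4 between them lies at -0.13 and 0.55.

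Genes below both LM2 libraries fell into opposite orders relative to the controls. In 82 of the 201, both LM2 libraries were already below their own controls, and there the rule of 2-fold below both sets the bleomycin library lower still. In 83, both LM2 libraries were above their own controls, and the bleomycin library was above its control in 33 and below it in 50. THBS1 is an example of the first order and the basal keratins of the second.

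THBS1 encodes thrombospondin-1, a matrix protein that activates TGF-beta and is a target of YAP. It was at 55.3 CPM with bleomycin, 279 and 319 with LM2, and 1405 and 1784 in controls. LM2 clone 1 held 5.04 times (4.68 to 5.43) and LM2 clone 3 5.77 times (5.37 to 6.21) the bleomycin level, with a fitted log2 difference of -2.43 (SE 0.25, edgeR adjusted p = 0.78). THBS1 was picked for lying below both LM2 libraries, so that part of its order was set by selection.

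NRG1, a ligand of the ERBB3 and ERBB4 receptors, had the same order, at 1.47 CPM against 15.0 and 34.1 and controls of 47.0 and 56.8. NEDD9, an adaptor of focal adhesions, was at 1.60 against 17.5 and 12.3, and INSYN2B at 5.13 against 28.7 and 32.4. ALPK2, an alpha-type kinase, was at 6.54 against 32.2 and 54.9, ACSS1, the mitochondrial acetyl-CoA synthetase, at 1.09 against 7.98 and 5.56, and DNAH11, an axonemal dynein, at 2.37 against 11.2 and 11.5. All of these were highest in the 2 controls.

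The carboxypeptidase CPA4 was at 1.03 CPM against 5.97 and 11.1, with controls at 6.93 and 9.01, so LM2 clone 1 was below its control and LM2 clone 3 above. FGF2, a fibroblast growth factor chosen after its values were seen, was at 257 CPM against 724 and 610, with controls of 426 and 366. With bleomycin FGF2 was thus below the controls, while both LM2 libraries were above them.

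KRT5, the basal keratin that pairs with KRT14, was at 12.3 CPM with bleomycin and 212 and 113 with LM2, against 2.29 and 2.67 in controls. LM2 clone 1 held 17.2 times (14.8 to 20.01) and LM2 clone 3 9.15 times (7.88 to 10.7) as much. The fitted log2 difference was -3.72 (SE 0.49, edgeR adjusted p = 0.82). KRT14 followed at 1.35 CPM against 9.45 and 7.42, and KRT17 at 5.26 against 16.1 and 18.6, with controls at or under 0.0919 for both.

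Of 15 tested keratins, 9 were below both LM2 libraries (60%, against 29.8% of all genes) and 0 above both, with medians of -0.82 and -0.54. KRT75 was at 167 CPM against 273 and 244, and the simple keratin KRT7 at 412 against 1021 and 1281. KRT8 lay between, at 68.7 against 61.6 and 89.5. Keratin reads may be split between close copies.

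Squamous genes as a list were split, with 5 of 14 above both LM2 libraries and 5 below both (35.7% each), 4 and 3 of them by 2-fold or more. S100A9 and S100A8, described above, are among those above both, as is the protease inhibitor SERPINB4, at 3.01 CPM against 0.0775 and 0.256, from 1 count in LM2 clone 1, whose reads may be split with SERPINB3. Of those below both, S100A2, a p63-associated calcium-binding protein, was at 6.35 CPM against 28.0 and 28.0, with 0.970 and 1.29 in controls and 111 in ITGB4-high cells. DSG3, the desmosomal cadherin of basal keratinocytes, was at 0.192 from 3 counts, against 14.1 and 3.13. The LM2 to bleomycin ratios of DSG3 were 73.3 (24.7 to 359) and 16.3 (5.26 to 81.7). MIR205HG, the host RNA of an epithelial microRNA, was picked after its values were seen and stood at 0.897 CPM against 12.1 and 12.2. RNF43, which removes WNT receptors from the cell surface, was at 0.577 against 12.3 and 5.05, and at 1.66 and 0.873 in controls. TP63 itself, also picked after its values were seen, was at 61.3 against 84.5 and 108.

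Epithelial junction genes were below both LM2 libraries in 13 of 22 tested (59.1%) and above both in 5, with medians of -0.47 and -0.13. The polarity scaffold PATJ was at 0.769 CPM against 3.18 and 5.69. The transcription factor GRHL1 went the other way, at 1.67 against 0.542 and 0.384. CDH1 and EPCAM, the best known epithelial surface proteins, did not pass the filter. The 12 lowest genes were likewise picked by their ratios, so calls among them are no separate support. edgeR with its filter called 0 of them, DESeq2 11, all but KRT14, and edgeR without its filter 12.

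YAP and TGF-beta target genes were lower in most members. YAP is a coactivator that works through TEAD factors and responds to tension and cell contact. Of 28 tested, 18 were below both LM2 libraries (64.3%) and 3 above both, with medians of -0.55 and -0.37. edgeR called 0 of them.

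THBS1, DLC1, AJUBA and CRIM1 were 2-fold or more below both. DLC1 was at 56.2 CPM against 146 and 163, and the LIM protein AJUBA at 82.1 against 175 and 283. CRIM1, a membrane protein that binds BMPs, was at 203 against 412 and 644. CCN2, the connective tissue growth factor, was at 15.8 against 29.7 and 33.6 and at 164 and 269 in controls.

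Members of the list did not all share this order. ANKRD1, another known YAP target, was at 3.65 CPM against 1.32 and 1.79, above both. ANKRD1 and CCN1 were chosen after their values were seen. CCN1 lay between LM2 clone 1 and LM2 clone 3, at 130 against 124 and 254.

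Promoters of THBS1, CCN2 and AJUBA are shown because these genes were lower together and hold the TEAD motif, GGAATG or its other strand CATTCC, in capitals. The windows are those of RefSeq, GRCh38.p14: THBS1 at chr15:39580829-39581128 on the plus strand, CCN2 at chr6:131951323-131951622 and AJUBA at chr14:22976793-22977092, both on the minus strand. The AJUBA window lies inside the gene as GENCODE places it (chr14:22971174-22982642), so it surrounds an internal start.
THBS1: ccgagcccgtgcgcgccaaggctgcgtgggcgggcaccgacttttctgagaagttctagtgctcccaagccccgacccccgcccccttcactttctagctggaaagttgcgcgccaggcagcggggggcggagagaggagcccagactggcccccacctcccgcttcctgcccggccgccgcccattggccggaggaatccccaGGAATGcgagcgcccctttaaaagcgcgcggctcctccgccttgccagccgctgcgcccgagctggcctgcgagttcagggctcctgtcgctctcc
CCN2: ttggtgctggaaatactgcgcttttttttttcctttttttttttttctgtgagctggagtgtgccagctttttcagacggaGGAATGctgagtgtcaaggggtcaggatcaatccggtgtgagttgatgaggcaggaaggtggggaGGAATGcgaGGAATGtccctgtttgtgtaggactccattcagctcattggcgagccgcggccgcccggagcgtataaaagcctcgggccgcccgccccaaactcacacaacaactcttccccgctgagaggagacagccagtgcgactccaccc
AJUBA: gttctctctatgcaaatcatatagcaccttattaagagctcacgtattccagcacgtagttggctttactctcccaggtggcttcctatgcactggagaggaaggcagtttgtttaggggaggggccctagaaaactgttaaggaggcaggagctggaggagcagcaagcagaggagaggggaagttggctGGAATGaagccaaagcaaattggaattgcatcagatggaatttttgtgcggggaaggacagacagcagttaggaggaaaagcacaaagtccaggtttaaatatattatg
CCN2 holds 3 matches, THBS1 1, at -46, and AJUBA 1, at -59. Of 35116 promoters 14% held the motif, as did 11 of the 22 list genes with a promoter in the table. A TEAD match can overlap a CEBP match, since GGAAT fits the last letters of the CEBP motif.

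ATF4 targets were below both LM2 libraries in 20 of 27 members and between them in 7. ATF4 is the transcription factor of the integrated stress response and drives amino acid uptake and synthesis. The 20 are 74.1% of the list, none was above both, and the medians were -0.43 and -0.38. The differences were small, none of them 2-fold against both libraries.

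SLC7A11, the cystine importer, was at 987 CPM with bleomycin against 3324 and 1665 with LM2, and at 1045 and 1038 in controls. Its partner chain SLC3A2 was at 382 against 791 and 612. CHAC1, which breaks down glutathione, was at 19.2 against 43.9 and 34.6, and CTH, a cysteine-making enzyme, at 56.2 against 108 and 94.1. ATF4 itself differed little, at 357 CPM against 374 and 367. Over own controls the list medians were -0.21 with bleomycin, 0.31 in LM2 clone 1 and 0.31 in LM2 clone 3.

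Chaperones of the endoplasmic reticulum, which fold secreted proteins, were below both in 13 of 22 (59.1%) and above both in 0. The medians were -0.89 against LM2 clone 1 and -0.02 against LM2 clone 3, so at the median the distance was from LM2 clone 1. HYOU1 was at 778 CPM against 1911 and 931, and HERPUD1 at 192 against 375 and 277.

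**Figure D4:**
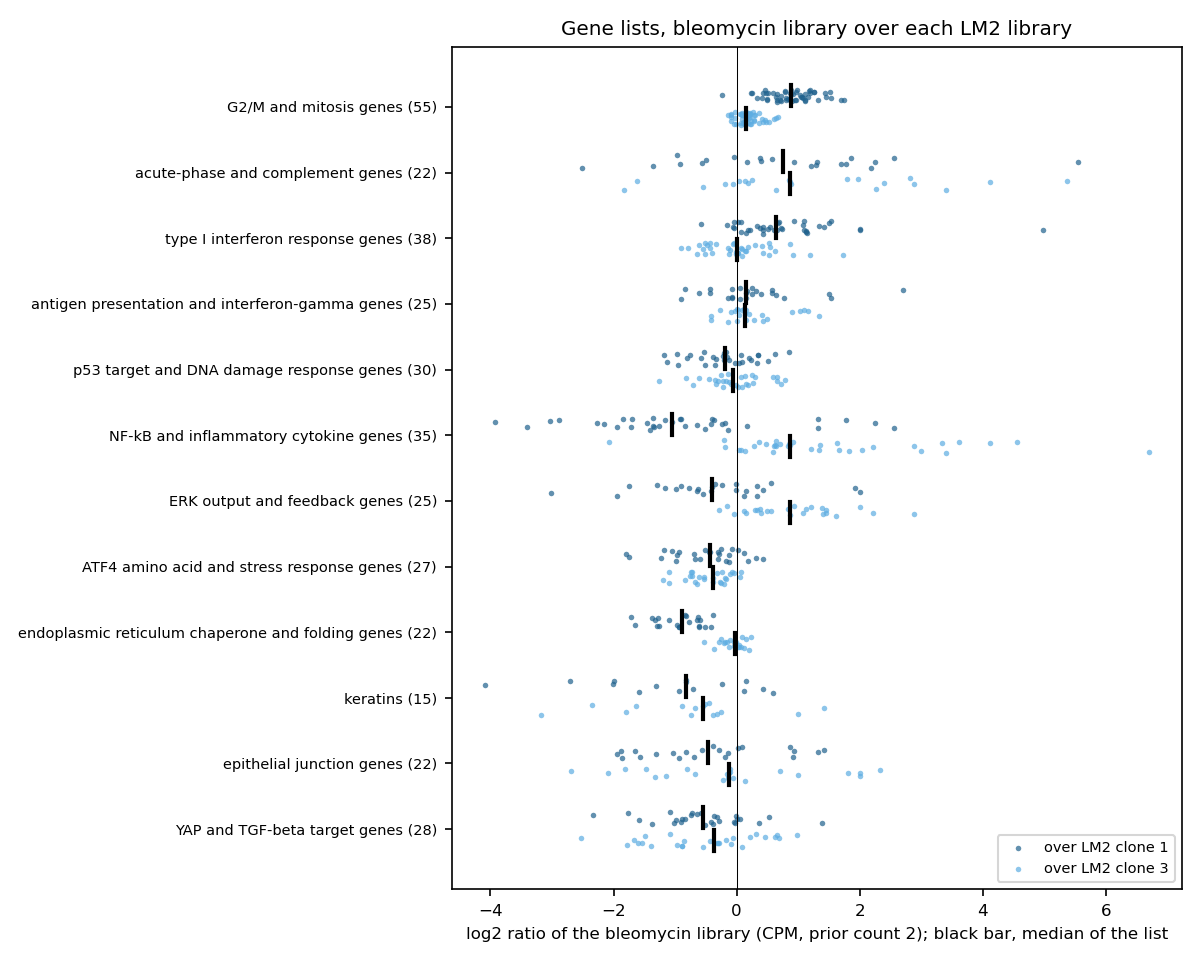
Log2 ratios of the bleomycin library to LM2 clone 1 (dark) and LM2 clone 3 (light) for every tested member of 12 gene lists, with the number tested in parentheses and a black bar at each median. Of the 55 mitosis genes 54 lie to the right of 0 against LM2 clone 1 and 46 against LM2 clone 3, ATF4 targets lie mostly to the left against both libraries, and inflammatory genes lie on opposite sides of 0 against the 2 libraries.

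Mitosis genes were higher against both LM2 libraries, by a larger step against clone 1. Of 55 G2/M genes, 45 were above both (81.8%, against 30.2%) and 0 below both, with medians of 0.89 and 0.16. The bleomycin library was above LM2 clone 1 in 54 of 55 and above LM2 clone 3 in 46, beside 8066 and 7662 of all 15673 genes. None reached 2-fold against both, and edgeR called 0.

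DLGAP5, a spindle protein, was at 177 CPM against 54.3 and 111, and the centromere chaperone HJURP at 143 against 59.7 and 92.1. ASPM, which focuses spindle poles, was at 487 against 180 and 340, and the kinesin KIF14 at 188 against 103 and 123. MKI67, the standard proliferation marker, was at 957 against 686 and 881, with controls at 716 and 853. Genes of G1/S and DNA replication did not share this, with medians of 0.42 and -0.22. Of 36, 4 were above both (11.1%, against 30.2% of all genes) and 7 below both (19.4%, against 29.8%).

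Type I interferon genes, which antiviral signalling induces, were above both LM2 libraries in 17 of 38 (44.7%) and below both in 3. The medians were 0.64 and 0.00, so the distance was from LM2 clone 1. IFI27 was at 16.7 CPM against 6.51 and 4.92, IFI44L at 79.8 against 36.3 and 43.6, and XAF1 at 90.3 against 57.1 and 47.8. IFIT1, a sensor of viral RNA, lay between at 13.5 against 8.06 and 23.4.

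Antigen presentation and interferon-gamma genes were above both in 14 of 25 (56.0%) and below both in 4, with medians of 0.16 and 0.14. The guanylate-binding proteins GBP4, at 9.68 CPM against 3.25 and 3.77, and GBP2, at 35.3 against 12.3 and 15.7, were 2-fold or more above both.

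Inflammatory cytokine genes placed the bleomycin library between the LM2 libraries. NF-kB is the transcription factor that interleukin-1 and TNF activate, and its targets include chemokines that draw in neutrophils. Of 35 tested, 28 lay between, 5 were above both and 2 below both, with medians of -1.05 against LM2 clone 1 and 0.87 against LM2 clone 3. The bleomycin library was below LM2 clone 1 in 29 and above LM2 clone 3 in 32, beside 7607 and 7662 of all 15673 genes. Over own controls the list medians were 2.55 with bleomycin, 3.45 in LM2 clone 1 and 0.48 in LM2 clone 3.

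CXCL8, a neutrophil chemokine, was at 143 CPM with bleomycin, 1058 in LM2 clone 1 and 34.5 in LM2 clone 3. IL1B was at 13.5 against 144 and 4.16, and IL6 at 26.7 against 68.5 and 8.57. CSF3, a growth factor of neutrophils, was at 46.2 against 117 and 0.320, from 5 counts in LM2 clone 3. SOD2, which detoxifies superoxide, was close to LM2 clone 1, at 5108 against 5616 and 1448. The 5 genes above both were VCAM1, IL24, SAA1, SAA2 and CCL5. VCAM1, a receptor for leukocytes, was at 95.0 against 84.5 and 11.8. CCL5, a lymphocyte chemokine, was at 27.1 against 5.58 and 14.3. SOD2, VCAM1, CSF3 and IL1B were chosen after their values were seen.

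**Figure D5:**
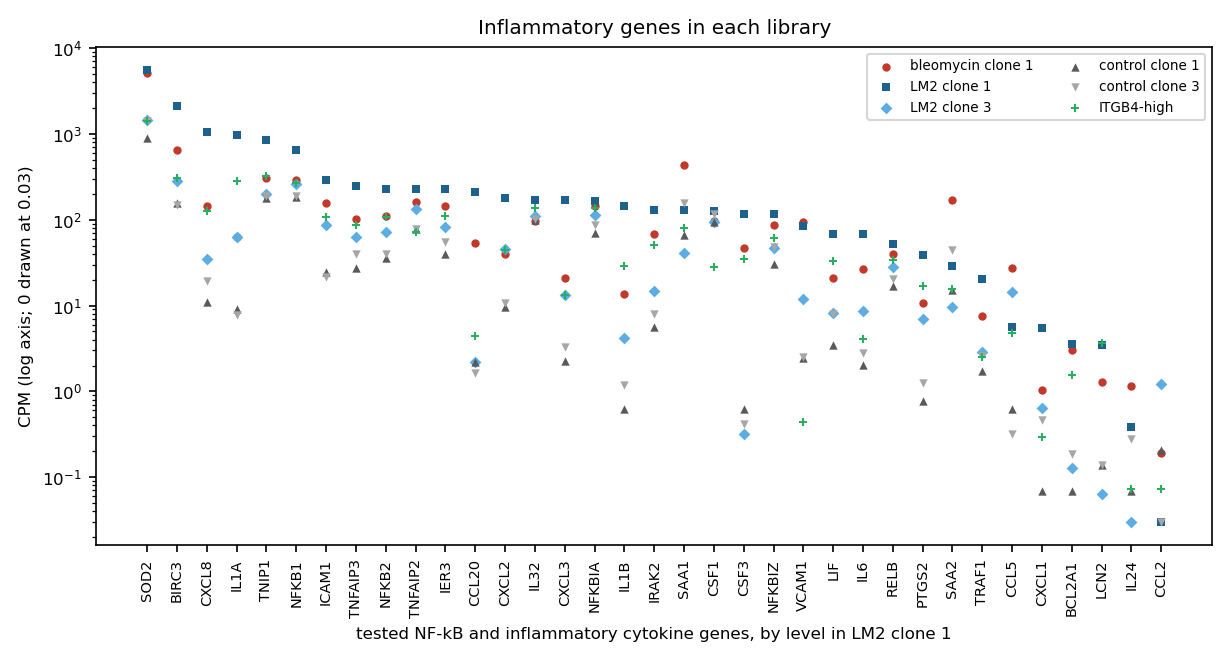
CPM (logarithmic axis) of the 35 tested NF-kB and inflammatory cytokine genes in each library, ordered by level in LM2 clone 1. For 28 genes the red bleomycin circle lies between the dark and light blue LM2 symbols.

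EGF receptor ligands and ERK output genes also had medians of opposite sign against the LM2 libraries. Of 13 tested EGF family genes, 8 lay between (40.0% of all genes did), 2 were above both and 3 below both, with medians of -1.05 and 0.65. EREG, a ligand, was at 584 CPM against 1962 and 214, and AREG at 58.1 against 470 and 31.8. EGFR was below both, at 443 against 993 and 751, and EGF above both, at 1.67 against 0.387 and 0.511. Of 25 ERK genes 14 lay between, 8 were above both and 3 below both, with medians of -0.39 and 0.87. DUSP4, a phosphatase that feeds back on ERK, was above both, at 53.8 against 13.3 and 20.2. EREG and AREG were chosen after their values were seen.

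Clone 1 alone gives the pair with the same clone number in the titles, 1 library against 1, with no replicate check and no test. Whether the 2 libraries are genetically alike was not tested. With bleomycin 1340 genes (8.55%) were 2-fold or more above LM2 clone 1 and 751 (4.79%) below it. At 5 CPM or more in the higher library, these came to 918 genes in all. Genes of chromosomes 4, 11 and 13 had medians of -0.33, -0.27 and -0.18 against LM2 clone 1, while the other 20 chromosomes ran from 0.00 to 0.07, and against LM2 clone 3 all 23 ran from -0.04 to 0.11. The part of these chromosome-wide differences in single genes was not tested. CXCL8, CXCL3, AREG, EREG, EPGN, EGF, FGF2, SULT1B1 and the ATF4 target SLC7A11 lie on chromosome 4. SAA1, SAA2, SAA4, the ATF4 target SLC3A2 and the chaperone gene HYOU1 lie on chromosome 11.

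The next genes were chosen for lying above LM2 clone 1 and below LM2 clone 3, so their lowest lung level is in LM2 clone 1 by selection. KCNH5, a potassium channel, was at 13.7 CPM with bleomycin, 0 in LM2 clone 1 and 16.1 in LM2 clone 3, with 0 in control clone 1 and 0.184 in control clone 3. Its level was at least 59.0-fold higher than the floor of 3 counts in LM2 clone 1. The zinc finger genes ZNF502 and ZNF44 were at 5.64 and 7.50 CPM against 0 and 0.0775 in LM2 clone 1, and at 5.88 and 8.25 in LM2 clone 3. ZNF502 was at least 24.3-fold higher than the floor. ZNF331 was at 8.33, 0.232 and 12.7, the chemerin receptor CMKLR1 at 7.12, 0.155 and 8.69, and the interferon-induced gene EPSTI1, on chromosome 13, at 6.35, 0.0775 and 12.02. ZNF44 rested on 1 count in LM2 clone 1 and had a ratio of 96.8 (17.04 to 3855).

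Other genes were chosen for lying below LM2 clone 1 and above LM2 clone 3, so their highest lung level is in LM2 clone 1 by selection. INHBA, the activin A chain, was at 0.385 CPM with bleomycin, 27.4 in LM2 clone 1 and 0 in LM2 clone 3. IL1A was at 63.6 against 971 and 62.2, with controls at 9.14 and 7.68 and ITGB4-high cells at 282, a 15.3-fold gap (14.3 to 16.3) within clone 1. The interleukin-7 receptor gene IL7R was at 18.7 against 252 and 1.53, and the EGF-family ligand EPGN at 7.76 against 102 and 1.79. SLITRK6 was at 0.321 against 5.04 and 0.0639. LCP1, the actin bundler of blood cells, was at 17.1 against 188 and 1.60, with controls at 76.8 and 101, so the bleomycin library and LM2 clone 3 were low. LCP1 and SLITRK6 lie on chromosome 13.

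ITGB4, far above its controls in all 3 lung libraries, was lowest among them in the bleomycin library (fitted log2 difference -0.58, SE 0.16, edgeR adjusted p = 0.93). ITGA6, its partner, lay between at 371 against 518 and 301, and the laminin chain LAMB3 at 118 against 592 and 22.9.

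On the mesenchymal side, VIM was at 3080 CPM against 2174 and 3051, and FN1, fibronectin, at 6995 against 4670 and 5608. ZEB1, a repressor of epithelial genes, was at 164 against 124 and 138, with controls at 311 and 278. CDH2 lay between, at 121 against 71.4 and 152. FBN1, the microfibril protein fibrillin-1, was at 56.0 against 19.99 and 18.9, with controls of 43.0 and 48.9, and the proteoglycan gene DCN at 39.2 against 14.6 and 12.8. Both were above the LM2 libraries and above their controls, DCN at 16.8 and 21.7 there. Mesenchymal genes as a list were near the background, with 11 of 42 above both and 10 below both.

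Matrix proteases and the plasminogen system were above both in 13 of 30 (43.3%) and below both in 3, with medians of 0.37 and 0.48. MMP14, a membrane-bound collagenase, was at 6.09 CPM against 1.24 and 1.66, and TIMP2 at 138 against 88.4 and 95.0. Among ID and BMP genes ID3 was at 24.5 against 63.6 and 53.2, and 6 of 19 were below both (31.6%, near the 29.8% of all genes) and 3 above. Of the lung metastasis list 7 of 27 were below both (25.9%, under that of all genes), NEDD9 and ID3 by 2-fold or more, and 4 above both.

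Targets of p53, the DNA damage response factor, are given because bleomycin breaks DNA. Of 30 tested, 5 were above both LM2 libraries (30.2% of all genes) and 10 below both (29.8%), with medians of -0.19 and -0.05. CDKN1A was at 44.1 CPM against 64.0 and 27.8, and GDF15 at 28.9 against 33.2 and 24.3. TP53I3 was at 24.0 against 52.8 and 39.3, and BBC3, a cell death inducer, at 11.2 against 7.21 and 6.78. DNA repair genes were above both in 18 of 39 (46.2%) and below both in 7 (17.9%), with medians of 0.20 and 0.08.

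Metabolic lists lay close to 0 against both libraries. Oxidative phosphorylation genes had medians of -0.02 and 0.04, glycolysis genes 0.00 and 0.16, and cholesterol synthesis genes -0.07 and 0.12. Mitochondrially encoded transcripts took 7.08% of counts with bleomycin, 5.74% and 6.04% with LM2. Of the 13, 8 were above both (61.5%, against 30.2% of all genes). HMOX1, which breaks down haem, was at 53.01 CPM against 25.9 and 24.0, with controls at 15.2 and 15.4. The metallothionein MT1X was at 146 against 59.8 and 33.3.

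Markers of other lung cells did not share 1 order. Lymphocyte and erythroid markers had at most 3 counts each in every lung library. The endothelial genes CDH5 and CLDN5 and the alveolar gene SFTPC were at 0 in all 3. Endothelial markers summed to 26.2, 14.7 and 27.4 CPM, with 84.4 and 122 in controls, fibroblast markers to 781, 866 and 1172, and lung epithelial markers to 58.1, 58.6 and 17. PECAM1, an adhesion protein of vessels and leukocytes, was at 9.42 CPM against 2.33 and 3.64, and between 1.80 and 3.07 in the dish-grown libraries. Over all genes, 30.2% were above both LM2 libraries and 29.8% below both. Of 5 tested endothelial markers 2 were above both (40.0%) and 0 below both. Of 9 fibroblast and smooth muscle markers 3 were above both (33.3%) and 2 below both (22.2%). DCN, given above, is among these 3, as is ACTA2, smooth muscle actin, at 15.5 against 8.52 and 10.7. COL1A1, of the same list, was at 194 against 90.4 and 712, between the LM2 libraries. Host cells are mouse, while reads were aligned to the human build. The part of other cells in these results was not tested beyond the values given.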

How the data were processed

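Per the labels' protocols, polyadenylated RNA was selected on oligo-dT, and a stranded KAPA mRNA HyperPrep kit was used. The submitters' processing notes name STAR 2.7.1a and the hg38 build. The table that the authors deposited holds raw counts per gene as whole numbers, and which counter, annotation and strand option made it is not given in the sources used here. Overlapping genes and close paralogs are uncertain to that extent. Of 58336 gene identifiers, 58216 matched GENCODE release 29, which gave positions on GRCh38, the same assembly as hg38.

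From these counts, CPM were computed in edgeR 4.0.16 with TMM factors, and log2 ratios with a prior count of 2. The test was edgeR's quasi-likelihood test (robust, filterByExpr at a minimum count of 10) on 4 groups over all 6 libraries, since the bleomycin group has 1, with Benjamini-Hochberg adjustment over 15673 genes, a threshold of 0.05 and 2 residual degrees of freedom. CD68, HP, SERPINB4 and IL24 are examples of genes that passed the filter through the bleomycin library only. The common biological coefficient of variation was 0.244. A count of 0 allows up to 3 counts, or 0.138 to 0.232 CPM. Intervals for ratios are 95% exact conditional binomial (Clopper-Pearson) intervals.

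Genes named by rule are protein coding; MIR205HG is not and was chosen after its values were seen. The rule takes the 12 highest and 12 lowest by the smaller of the 2 log2 ratios at 5 CPM or more, up to 4 members of each list by the same measure, 6 and 6 from the clone 1 pair with opposite ratios against LM2 clone 3, and core genes. Within a list, members outside that rule were chosen after their values were seen. There were 35 pathway lists and 6 cell marker lists. Members and lists were chosen with earlier results of these data known. Clone numbers pair libraries, since the titles give the clone. The deviations of the clones in the LM2 pair and the control pair had a correlation of 0.0097 across 12092 genes. LM2 clones differed by 90.0 in chi-square per degree of freedom and control clones by 9.83, so no library was counted again. Alternatives were RLE factors, DESeq2 1.42.0, limma-voom (limma 3.58.1), no filter, the clone as a block, the lung libraries alone, other prior counts and scalings, and leaving out each library. R was 4.3.3.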

Additional observations from a re-analysis of the deposited data

Results flagged for a closer look

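For 3 gene lists, the bleomycin library lay on opposite sides of the LM2 libraries: below LM2 clone 1 and above LM2 clone 3. This marked them for a closer look, and the difference between the ratios was not tested. NF-kB and inflammatory cytokine genes had a median log2 ratio of -1.05 against LM2 clone 1 and 0.87 against LM2 clone 3. ERK output and feedback genes had -0.39 and 0.87. EGF receptor family and ligand genes had -1.05 and 0.65. Several ligands among them lie on chromosome 4, whose genes had a median of -0.33 against LM2 clone 1 and 0.00 against LM2 clone 3, and the part of this was not tested.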

How the results depend on the processing

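The number of genes called was 0 in edgeR with RLE factors, with the lung libraries alone, in limma-voom, and in edgeR without the ITGB4-high library or either control. It was 56 with DESeq2 and 235 in 1 direction against both LM2 libraries with no filter on low counts. Leaving out 1 library gave 0 to 2969, the highest without LM2 clone 3, and the cause was not tested. With the clone as a replicate block 0 genes were called, with 748 at an unadjusted p under 0.05, and the pairing changed no other call. The 464 genes 2-fold or more from both LM2 libraries in 1 direction became 308 with a prior count of 5, 149 at 5 CPM or more, and 1453 to 2091 with 1 LM2 library left out, where only 1 ratio is required. The 2091 genes of the clone 1 pair became 918 at 5 CPM or more. Directions turned for core genes whose LM2 libraries lay on both sides of bleomycin. In limma-voom the log2 difference was 0.086 for CDKN1A, 0.22 for IL6 and 0.036 for LAMB3, against -0.06, -0.52 and -1.38. With the replicate block GDF15 was at -0.29, against 0.01. With 1 library left out, the range was -0.33 to 0.75 for CDH2, -0.54 to 0.67 for CDKN1A, -2.90 to 2.05 for CXCL8, -0.20 to 0.25 for GDF15, -1.36 to 1.64 for IL6, -0.49 to 0.30 for ITGA6 and -2.33 to 2.37 for LAMB3. The cause was not tested. Among 1995 alternative values for 184 named genes, these 11 turned, 1689 kept direction and side of the threshold, and 295 passed it. The 1995 include values from fits without 1 LM2 library, whose spread comes from the control pair alone. Counts of list members above or below both LM2 libraries were within 1.5 times in all 148 alternatives, which were chosen after seeing the data. Of the list medians against the mean of the LM2 ratios, 193 alternatives stayed within the spread between the LM2 libraries and 29 moved beyond it, among them acute-phase genes, from 0.65 to between 0.52 and 0.86. Of the clone 1 gene ratios 47 stayed and 1 moved.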
